A study of Mus musculus with 18 samples.

Results

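The 8 genes described here, Mcm3, Mcm4, Mcm5, Mcm7, Cdc7, Pcna, Timeless and Uhrf1, encode proteins that open DNA at replication origins or travel with the moving fork. They were chosen by name, and every probe whose platform symbol was one of the 8 was taken, which gave 8 probes, 1 a gene, of the 6868 on the array (5974 gene symbols had a probe of their own). The RNA came from MEL cells (murine erythroleukemia), a long-established line of transformed red cell precursors of the mouse, which were induced with hexamethylene bisacetamide (HMBA), a small polar compound that makes these cells differentiate and take up hemoglobin synthesis. Each of 18 two-colour arrays compared RNA of 2 samples. On series A, with 1 array each for days 1, 2, 3, 4, 5 and 6 after HMBA, and on series B, with 1 array each for days 2, 3, 4, 5 and 6, induced RNA stood in channel 1 and RNA of uninduced control cells in channel 2. The day 0 arrays held uninduced RNA in both channels, and there was 1 in each series. A further 5 arrays carried the letters SD in their titles. On those of days 2, 3, 5 and 6 the labels exchanged the channels, and the SD array of day 0 again held uninduced RNA in both.

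Before a cell copies its DNA, a ring-shaped MCM helicase is loaded at origins in an inactive form. The kinase Cdc7, bound to its activator Dbf4, phosphorylates the loaded helicase and so lets origins fire. Behind the helicase the clamp Pcna holds DNA polymerases on the template, while Timeless belongs to the complex that steadies the fork and Uhrf1 reads the hemimethylated DNA that the fork leaves and brings in the methyltransferase Dnmt1. Terminal erythroid differentiation is known for a last series of divisions followed by exit from the cell cycle.

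Values are log2 ratios centred on the median of each array. Their direction is likely induced over control. The labels named channel 1 as the induced RNA, and a probe of the alpha-globin family, Hba-ps3, read 4.96, 4.82 and 4.13 on days 4, 5 and 6 of series A, against 0.51 on its day 0. On the SD arrays of days 5 and 6 the same probe read -2.78 and -4.20, against 1.73 on the SD array of day 0. On those of days 2 and 3 it read -4.25 and 0.94. The globin probe Hbb-b2 was less even. On days 4, 5 and 6 it read 3.57, 3.51 and 1.86 in series A, against 0.31 on day 0. In series B it read 2.65, 0.36 and 2.22, against -0.25. On the SD arrays of days 2, 3, 5 and 6 it read 1.05, -0.09, -0.86 and -3.11, against 0.45 on that of day 0. Each of the 13 arrays not titled SD gave a ratio for between 2008 and 4945 probes. Series A of day 2 stood apart, with a median correlation of 0.05 with the other 12 arrays across probes (-0.08 to 0.13), and that of day 1 had 0.16. Of the erythroid marker genes, 10 of 14 were on the array, and 4 to 10 of their 10 probes had a value on an array. Late in the course 8 of the 10 read higher than on day 0 and 2 lower, with a median difference of 1.17. Markers of other cell types had a value for 1 to 13 of 17 probes on an array, and none had enough values for a late difference, so their part in the results was not tested. Whether each array had a culture of its own is not stated in the labels. The p-values therefore measure no more than how arrays differ among themselves, which may be technical, and the number of arrays limits the precision. In RNA from a whole culture, fewer cycling cells and less RNA per cell cannot be told apart.

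The promoters of the 8 genes were read for the letters of E2F sites, because E2F factors are the textbook regulators of S phase genes. RefSeq windows of the build GRCm38.p6, from 250 bases before to 50 bases after an annotated start, were at hand for 7 of the 8 genes (not Mcm4), as 10 windows. The letters searched on both strands were TTTCGCGC, TTTGGCGC, TTTCCCGC and TTTGCCGC. They were present in 4 of the 10 windows, 1 each of Mcm3, Mcm5, Mcm7 and Uhrf1, and in 2.26% of the 32851 windows of all genes. The match of Mcm3 lay after the start. The other 3 are shown as 60-base stretches with 1 match in capitals, each on the strand of its gene. In Mcm5 the letters GCGCCAAA, which are TTTGGCGC on the other strand, overlap the capitals and are not marked. They lie at chr8:75109330-75109389 on the plus strand for Mcm5, at chr5:138172015-138172074 on the minus strand for Mcm7 and at chr17:56304102-56304161 on the plus strand for Uhrf1.
Mcm5: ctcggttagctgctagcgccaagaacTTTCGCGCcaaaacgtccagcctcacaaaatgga
Mcm7: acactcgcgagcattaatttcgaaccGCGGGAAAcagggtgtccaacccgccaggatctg
Uhrf1: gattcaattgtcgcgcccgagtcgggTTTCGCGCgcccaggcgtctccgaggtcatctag
The marked match began at base -153 from the annotated start of that window in Mcm5, at -165 in Mcm7 and at -185 in Uhrf1. In Mcm7 the letters read from the other strand are TTTCCCGC. The stretches of Mcm7 and Uhrf1 lie before the start of their window but inside the annotated gene. Those genes span chr5:138164583-138172111 and chr17:56303337-56323486. The 1 window of Timeless, chr10:128237816-128238115 on the plus strand, also lay inside its gene, chr10:128232063-128252941. It did not cover the start of that gene, and it held none of the letters searched. CCAAT was present in 7 of the 10 windows, those of 5 of the 7 genes, and in 37.4% of all windows. The GC box letters GGGCGG were present in 8 of the 10 windows, those of 5 of the 7 genes, and in 35.7% of all windows. These matches describe the letters only, and no factor binding was measured in the data.

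The late comparison asked whether the fork genes read differently once cells had been in HMBA for 4 to 6 days, with the mean of days 4, 5 and 6 set against day 0 on the 13 arrays. All 8 genes had a negative late difference, between -0.85 and -1.65 with a median of -1.35, and on each of the 6 late arrays every measured member read below its own mean over the day 0 arrays of series A and B. None passed the test. The fit, limma's moderated test across all probes with Benjamini-Hochberg adjustment at 0.05, called 0 of the 8 members and 0 of the 1211 probes tested, or 0 percent. At an unadjusted p under 0.05 it had 28 probes, 7 of them lower, and Timeless was the 1 member among them. Over the 2615 probes with a late difference in the fit without a filter the median was 0.16, and 1061 were lower.

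**Figure D1:**
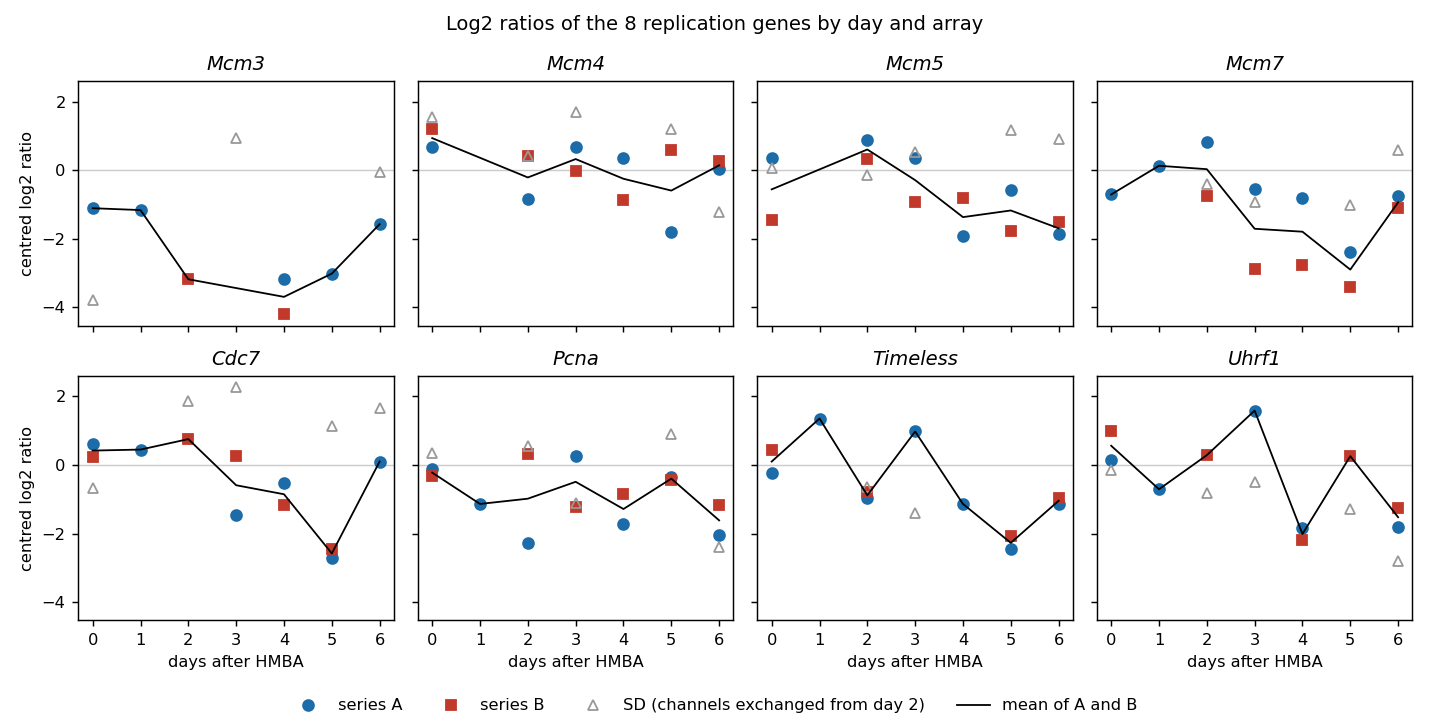
Centred log2 ratio (y axis) of each of the 8 genes against days after HMBA (x axis), with filled circles for series A, squares for series B, open triangles for SD arrays and a line through the mean of A and B. On days 4 to 6 the filled points of every gene lie below the mean of its filled day 0 points, while the triangles of Cdc7 lie between 1.14 and 2.27 from day 2 on.

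The MCM helicase was represented by 4 of its subunits. Mcm3 (chromosome 1) was the least often measured, with 7 of 13 arrays. It read -3.18 and -4.21 on day 4, -3.02 on day 5 and -1.57 on day 6, against -1.11 on day 0 of series A. The SD array of day 0, which also held uninduced RNA alone, read -3.78, below 3 of the 4 late values, so the uninduced arrays spanned most of the late range. The late difference was -1.65 (SE 1.15, adjusted p = 0.9999 in limma), from the fit without a filter, and -1.48 within series A, since series B had no day 0 value. With the SD array added to day 0 it was -0.32.

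Mcm4 (chromosome 16) had late ratios from -1.79 to 0.60 with a median of 0.14, against 0.68 and 1.19 on the day 0 arrays. The highest late value, day 5 of series B, was still below both day 0 values, and the groups did not overlap. The late difference was -1.17 (SE 0.77, adjusted p = 0.9999 in limma). It was -0.77 without day 5 of series A, the array with the lowest value. The late mean differed from day 0 by -1.15 within series A and by -1.19 within series B.

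Mcm5 (chromosome 8) had late ratios from -1.91 to -0.58 with a median of -1.64, against 0.34 and -1.46 on the day 0 arrays. Its late arrays were close to each other and its day 0 arrays were not, so the groups overlapped. Its late difference was -0.85 (SE 0.75, adjusted p = 0.9999 in limma), and it rested on the day 0 arrays: it was 0.05 without that of series A and -1.76 without that of series B. Within series A it was -1.80, with 3 of 3 late arrays below day 0, and within series B 0.09, with 2 of 3 below. On day 2 the ratios were 0.87 and 0.33, and every late array lay below them.

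Mcm7 (chromosome 5) had late ratios from -3.41 to -0.76 with a median of -1.75, against -0.71 on the single day 0 array with a value. In series A the readings of -0.82 on day 4 and -0.76 on day 6 lay close to day 0, so that the groups were only just apart. The late difference was -1.17 (SE 1.11, adjusted p = 0.9999 in limma). Within series A, which alone had a day 0 value, it was -0.62. Mcm7 also read 0.13 on day 1, and 0.82 and -0.76 on day 2, and late minus early was -1.96 (SE 0.76, unadjusted p = 0.020, adjusted p = 0.730 in limma).

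Cdc7, the kinase that fires licensed origins (chromosome 5), had its lowest values on day 5 in both series. Its late ratios were -0.53 and -1.17 on day 4, -2.70 and -2.46 on day 5 and 0.10 on day 6, against 0.62 and 0.22 on day 0. The groups did not overlap, in these series, and day 6, with 1 array, came nearest to day 0. The SD array of day 0 read -0.66, below 2 of the 5 late values. Days 4 to 6 differed from day 0 by -1.53 (SE 0.76, adjusted p = 0.9999 in limma), a 2.89-fold lower level late, with -1.66 within series A and -2.04 within series B. For day 5 alone the difference was -3.00 (SE 0.90, unadjusted p = 0.0047, adjusted p = 0.916 in limma), with 2 arrays.

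Pcna, the sliding clamp (chromosome 2), was the one member with a value on all 13 arrays. Its late ratios ran from -2.05 to -0.36 with a median of -1.01, against -0.12 and -0.32 on day 0. The groups did not overlap, but the gap was small, since days 5 of both series read -0.36 and -0.43. Its late difference was -0.88 (SE 0.78, adjusted p = 0.9999 in limma), with -1.25 within series A and -0.50 within series B. Pcna had no order in time: it read -1.14 on day 1, and -2.27 and 0.31 on the day 2 arrays, so late minus early was -0.04 (SE 0.71), and -0.68 without day 2 of series A.

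Timeless, of the fork protection complex (chromosome 10), had the smallest late p of the 8. Its late ratios were -1.14 on day 4, -2.46 and -2.08 on day 5 and -1.13 and -0.96 on day 6, against -0.23 and 0.43 on day 0. Late and day 0 arrays did not overlap. Days 4 to 6 differed from day 0 by -1.58 (SE 0.71, unadjusted p = 0.043, adjusted p = 0.9999 in limma), and both series carried it, with -1.35 in series A and -1.94 in series B. Its values on days 1 and 3, 1.35 and 0.98, were the highest it had, each from 1 array of series A, while both day 2 arrays read low (-0.97 and -0.80).

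Uhrf1, which ties DNA methylation to the fork (chromosome 17), was measured on 10 of the 13 arrays. Its late ratios were -1.83 and -2.19 on day 4, 0.26 on day 5 and -1.80 and -1.24 on day 6, against 0.13 and 0.99 on day 0. The single day 5 value lay above the lower day 0 value, so the groups overlapped. The late difference was -1.65 (SE 0.80, adjusted p = 0.9999 in limma) from the fit without a filter, with -1.95 in series A and -2.05 in series B. On day 3 Uhrf1 read 1.59 on its 1 array, above every other value it had.

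Counted over the group, every late array lay below every day 0 array of series A and B for 6 of the 8 genes, Mcm3, Mcm4, Mcm7, Pcna, Cdc7 and Timeless, against 5.22 percent of the 2336 probes with at least 4 late values. No member had the opposite pattern. For Mcm3 and Mcm7 that day 0 group was 1 array. With the SD array of day 0 counted as well, the number was 4 of the 8, Mcm4, Mcm7, Pcna and Timeless, against 3.13 percent of 2430 probes. Mcm7 and Timeless had no value on that SD array, so it could not change their place in the count. Mcm3 and Cdc7, which had one, dropped out. Late arrays lay below all early arrays, those of days 1 and 2, for 3 of the 8, Mcm5, Mcm7 and Cdc7, against 2.2 percent of 2275 probes. For Mcm7 the highest late value, -0.7642, was barely below the lowest early value, -0.7605. Mcm5 and Cdc7 had 2 early arrays each. The 8 genes were named with results of these arrays in view, so these counts describe them and lend no independent support.

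The course by array describes the members day by day and does not date a change. In the fit of series A and B, limma called 0 members on any single day against day 0. Relative to the day 0 mean of each gene, the median over the measured members was -0.01 on day 1, -1.07 and -0.16 on day 2 of series A and B, and 0.48 and -0.96 on day 3. It was -1.29 and -1.80 on day 4, -1.91 and -1.21 on day 5 and -1.07 and -0.96 on day 6. The medians of the 2 series had opposite signs on day 3 and the same sign on days 2, 4, 5 and 6. On day 3 of series B, 64.5 percent of all probes read below their day 0 mean, against 36.0 percent on day 4 of series A, so the background was not the same on each array.

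In the early comparison, days 1 and 2 against day 0, the 6 members with a value on day 1 were on both sides of 0, from 0.79 for Mcm7 to -1.06 for Mcm3. Without day 2 of series A, Mcm7 was at 0.39, and Pcna at -0.19 in place of -0.84. None was called by limma, nor was any of the 1060 probes tested (0 percent), with 37 at an unadjusted p under 0.05. For late minus early, limma called 0 of these 6 members and 0 of 1050 probes (0 percent), with 67 at an unadjusted p under 0.05. The differences were -1.96 for Mcm7, -1.72 for Timeless, -1.71 for Cdc7, -0.88 for Uhrf1, -0.59 for Mcm3 and -0.04 for Pcna. They leaned on the lone day 1 array: without it Timeless was at -0.70, Mcm7 at -1.20, Uhrf1 at -1.94 and Mcm3 at 1.53. Without the outlying day 2 array of series A, Mcm7 was at -1.56 and Timeless at -1.76. Mcm4 and Mcm5 had no value on day 1 and no such difference.

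The 13-array comparison did not use the SD arrays. It did use the series B arrays that are set against them here, so the reading below is only partly separate. A bias of a probe that both arrays share cancels in the difference between the series B and the SD array of the same day, and dividing it by 2 gives the difference between induced and control RNA, if the channels were exchanged as labelled. Across all probes the B and SD arrays correlated positively, at 0.58, 0.42, 0.43 and 0.52 on days 2, 3, 5 and 6. The SD array of day 0, which held no induced RNA, had a median correlation of 0.51 with the 13 arrays. Hba-ps3 gave 3.24, 0.56, 4.37 and 4.04 on the 4 days, and Hbb-b2 -0.37, 0.27, 0.61 and 2.66. For Cdc7 this value was -0.55 on day 2, -1.0 on day 3 and -1.80 on day 5. For Mcm7 it was -0.17, -0.98, -1.19 and -0.85 on days 2, 3, 5 and 6. In this difference both genes were below 0 on every day measured, and for Cdc7 each later day was lower than the one before. The median over all probes was 0.02, -0.48 and 0.08 on days 2, 3 and 5. From day 2 to day 3 Cdc7 thus fell by no more than that median did. The SD arrays themselves read -0.41, -0.92, -1.03 and 0.60 for Mcm7. On days 2, 3 and 5 they thus had the same sign as series B, which read lower still. Mcm5 read 0.24 on day 2 and -0.73, -1.47 and -1.21 on days 3, 5 and 6. Its mean was -0.79 ± 0.75 (SD, n = 4 days), that of Mcm7 -0.80 ± 0.44 (SD, n = 4 days) and that of Cdc7 -1.12 ± 0.63 (SD, n = 3 days).

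The other members did not share that reading. Uhrf1 was at 0.55, 0.77 and 0.77 on days 2, 5 and 6, on the side opposite to its late difference. Its SD values, -0.81, -1.28 and -2.79 on those days, ran the same way as the late values of series A. Mcm4 was at 0.00, -0.86, -0.31 and 0.73 on days 2, 3, 5 and 6, and Pcna at -0.12, -0.07, -0.66 and 0.61, with means of -0.11 ± 0.66 and -0.06 ± 0.52 (SD, n = 4 days each). Both spread to either side of 0. Timeless had 1 pair, on day 2, at -0.08, and Mcm3 had none.

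**Figure D2:**
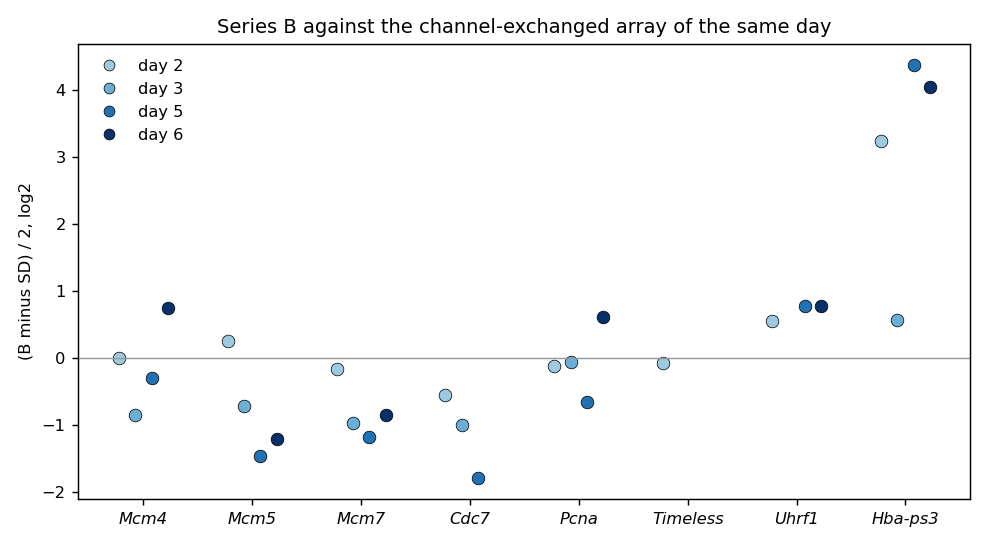
Difference between the series B and the SD array of the same day divided by 2, in log2 units (y axis), for each gene (x axis), with 1 point per day and darker points for later days, and Hba-ps3 for comparison. Cdc7 and Mcm7 lie below 0 on every day, Uhrf1 lies above 0 on all 3 of its days, and Hba-ps3 reaches 4.37.

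Of the 6 members with at least 3 such days, 2 were below 0 on every day, against 14.7 percent of 1310 probes, and 1, Uhrf1, was above 0 on every day, against 12.1 percent. Day 3 leaned downward as a whole, with a median of -0.48 over all probes and 77.5 percent of them below 0, while the medians of days 2, 5 and 6 were 0.02, 0.08 and 0.14. Among the SD arrays alone, days 5 and 6 both lay above day 0 for Mcm5 and Cdc7, 2 of the 5 members measured on all 3 arrays, which is the side opposite to series A and B. The background was 32.3 percent of 1815 probes. Both lay below day 0 for Mcm4 and Uhrf1, 2 of the 5, against 30.8 percent. For Cdc7 the SD arrays averaged 1.40 on days 5 and 6, against -0.66 on day 0, and for Uhrf1 they averaged -2.03, against -0.14 on day 0. These shares are close to the background and rest on 1 day 0 array.

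When all 18 arrays entered 1 fit with an orientation term, which gives the exchanged arrays the opposite sign and each probe 1 shared bias, limma called 1 member. Mcm5 had a late difference of -1.28 (SE 0.32, adjusted p = 0.0465). Cdc7 came next, at -1.42 (SE 0.39, adjusted p = 0.0745 in limma). The same fit called 16 of 1220 probes, 7 of them lower. Neither gene was stable: with 1 of 17 arrays left out in turn, Mcm5 was called 3 times (-1.46 to -1.09, largest adjusted p = 0.303 in limma, without day 4 of series A) and Cdc7 once (-1.87 to -1.19, largest adjusted p = 0.474 in limma, without the SD array of day 6). Mcm3, Timeless and Mcm7 stood at -1.40, -1.15 and -0.91 in this fit. Mcm4, Pcna and Uhrf1 were nearer 0, at -0.42, -0.40 and -0.24, with standard errors of 0.37, 0.40 and 0.45. The 18-array fit had no term for the pairing of the B and SD arrays of a day and counted them as separate arrays.

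**Figure D3:**
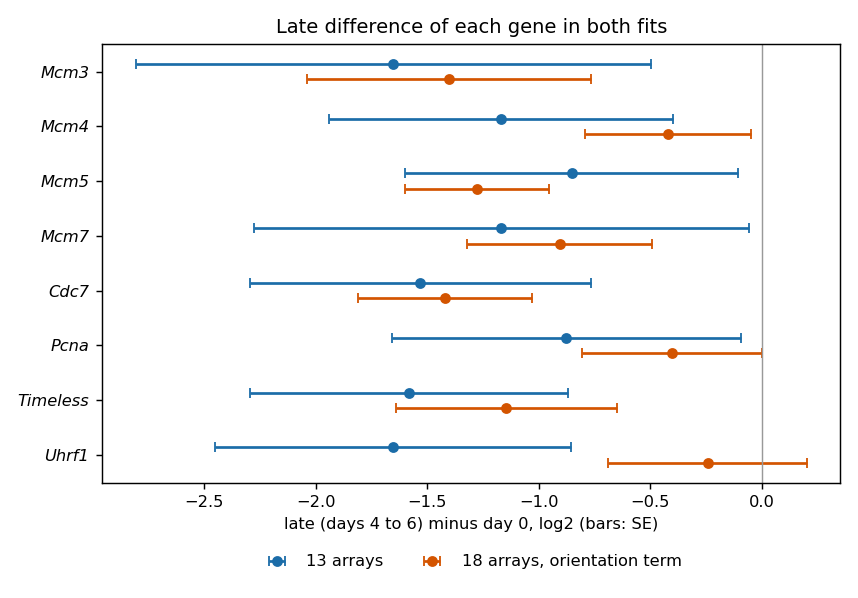
Late difference of each gene, days 4 to 6 minus day 0 in log2 units (x axis), with bars of 1 SE, from the 13 arrays of series A and B (blue) and from all 18 arrays with an orientation term (orange). The blue points lie between -1.65 and -0.85, and the orange points of Mcm4, Pcna and Uhrf1 lie nearer to 0.

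The partners of these proteins were read next. Dbf4, the activating subunit of Cdc7, had a late difference of -0.80 (SE 0.98, adjusted p = 0.9999 in limma), with 5 of 6 late arrays below its 1 day 0 value. Mcm2, a further helicase subunit, was at -0.16 (SE 0.88), with 4 of 5 late arrays below its day 0 mean. Mcm6 read -0.74, -2.82 and -1.59 on its 3 late arrays, against -0.21 on its day 0 array, and had no late difference for want of a day 6 value. Rfc1, of the clamp loader that places Pcna on DNA, was at -0.34 (SE 1.42). Dnmt1, the methyltransferase that Uhrf1 brings to the fork, was at 0.35 (SE 0.86), with late ratios averaging -0.99 against -1.34 on day 0. On the B and SD arrays Dnmt1 was below 0 on 4 of 4 days, with a mean of -0.59, against 14.7 percent of 1310 probes below 0 on every day. Its widest gap was on day 3, with -2.31 on the B and 1.42 on the SD array. On that day 77.5 percent of all probes were below 0. Dnmt1, like Uhrf1, had opposite signs in the late difference and in the comparison with SD arrays.

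A wider list held 78 other genes of DNA replication, with 43 probes on the array and 31 with a late difference. Of these 22 were lower and 9 higher, limma called 0, and the median was -0.50, against -1.35 for the 8 genes and 0.16 for all probes. The 3 other genes of the helicase and its activators had a median of -0.57, 5 of origin recognition and licensing -0.50, 6 of the polymerases and primase -0.46 and 5 of nucleotide supply -0.79. It was -0.23 for 3 clamp loaders and clamp partners, -0.32 for 5 of chromatin copying and DNA methylation, and 0.10 for 2 topoisomerases. Under fork protection and single-strand binding the list held 2, Rpa2 at -0.94 and Slbp at 0.65. Slbp binds histone mRNA, so the median of the 2, -0.15, does not describe that role. The lowest with at least 4 late arrays were Rrm2 and Rrm1, the subunits of ribonucleotide reductase, at -1.09 and -0.99, and Orc5, of the origin recognition complex, at -1.02. The highest were Pold2, a subunit of DNA polymerase delta, at 1.19, Dck, a kinase that salvages deoxynucleosides, at 1.09, and Top2a, a topoisomerase of dividing cells, at 0.71. Pold2 was above its day 0 mean on 6 of 6 late arrays, but its B array lay below the SD array on 3 of 3 days, with a mean of -1.04. The list's median was -0.37 within series A and -0.22 within series B. With the day 0 array of series A left out it was 0.07, over the 16 probes that kept a late difference, in place of 31.

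**Figure D4:**
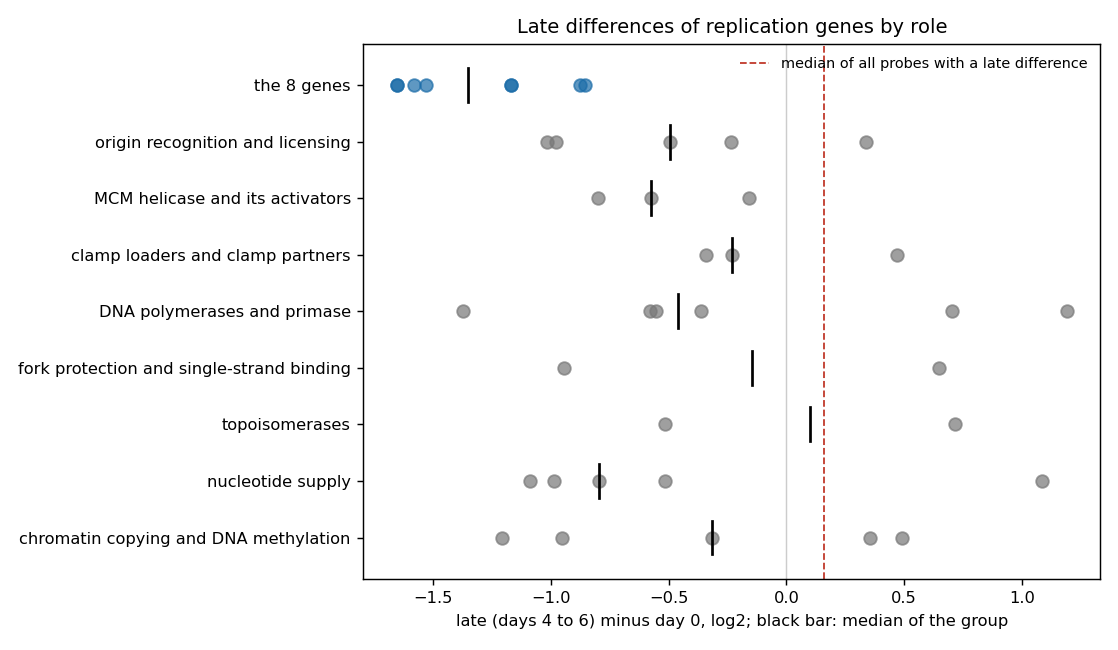
Late difference, days 4 to 6 minus day 0 in log2 units (x axis), of the 8 genes (top) and of the other replication genes by role, with 1 point per probe, a black bar at the median of each group and a dashed line at the median of all probes, 0.16. The 8 genes lie between -1.65 and -0.85, and most roles have points on both sides of 0.

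The members did not form 1 common profile over the 13 arrays. Pearson's r between their ratios ran from -0.28, for Mcm7 and Pcna over 12 arrays, to 0.83, for Pcna and Uhrf1 over 10, with a median of 0.42 over 28 pairs, 23 of them above 0. All pairs share the same arrays, so these are descriptions. The probes most like the mean of the 6 members past the filter, of 1075 compared over at least 11 arrays, were those of Rpia (r = 0.74), Traip (0.73), Selenow (0.71), Coil (0.70) and Itga5 (0.69).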

How the data were processed

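The deposited table held 1 value per probe and array. The authors' scale was recognised from the values as log2 ratios; for numerator, dyes and normalization, the sources used here name none. The values were centred on each array's median. Probes were named from the platform annotation, and gene positions and promoters came from RefSeq (GRCm38.p6). Of 6868 probes, 1221 entered a limma 3.58.1 fit (R 4.3.3), those measured in at least 11 of the 13 non-SD arrays, 1 or more of them of day 0, with the days as groups and Benjamini-Hochberg adjustment at 0.05. Mcm3 and Uhrf1 fell below that filter, and their values came from the same fit over all probes. Day 1 had 1 array and was assumed to vary like the other days. The SD arrays were read apart and in the 18-array fit. The steps were tested on simulated data. Named were the 8 genes, their partners, the 3 lowest and 3 highest of the replication list with at least 4 late values, and the 5 probes most like the members. The members and lists were chosen with earlier results of these data known. Alternatives were no centring, quantile normalization, equal spread, the series letter as a block, ratios against 0 and each array left out. The probe sequences were not used here, so cross-hybridization was not assessed.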

Additional observations from a re-analysis of the deposited data

How the results depend on the processing

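Of 113 alternative values that could move the late differences of the 8 genes, 112 were below 0 and 16 moved by over 1.5 times, none of them for Cdc7 or Timeless. Mcm3 was at -0.32 with the SD array of day 0 added and -2.76 against 0. Mcm4 was at -0.24 and Uhrf1 at -1.09 against 0. Mcm7 was at -0.74 without centring, -0.62 with quantile normalization and -0.67 with equal spread. Limma called 1 member late (Mcm5) with all 18 arrays and an orientation term. With ratios set against 0 it called 5 late (Mcm3, Mcm5, Mcm7, Pcna and Timeless) and 2 on single days. That setting subtracts no day 0 value, so a bias of the probe stays in, and it leaves out the error of day 0. It called 309 of 1211 probes late. Mcm3 is not among the 1211, since its call came from the fit without a filter. With the series letter as a replicate block, limma called 0 members, Mcm7 was at -0.45 and Cdc7 at -1.49 late, and 1 of 1211 probes was called. Arrays with the same letter correlated at a median of 0.27 (-0.01 to 0.42 over 15 pairs of days, 14 over 0.1), and the labels do not say that a letter marks a batch. The late difference of Mcm5 ran from -1.76 to 0.051 with 1 array left out. For late minus early, 9 values turned their sign, 8 of Pcna and 1 of Mcm3. Pcna was at 0.17 without centring, 0.26 with quantile normalization, 0.30 with equal spread and 0.22 with the orientation term, and ran from -0.68 to 0.61 with 1 array left out, while Mcm3 ran from -0.76 to 1.53. The median of the replication list was -0.10 without centring, -0.32 with quantile normalization, -0.25 with equal spread, -0.17 with the orientation term, -0.18 with the SD array of day 0 added, -0.23 with the replicate block, -1.07 against 0 and -0.23 with the filter, a setting chosen after seeing the data, as was leaving arrays out of the 18-array fit. It ran from -0.77 to 0.068 with 1 array left out, each end over 16 probes in place of 31. With the filter it was over 12 probes, so these medians are not all of the same probes. The cause of these shifts was not tested. Signal over background was not used here, so no value could be weighted by its precision.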
